A study of Homo sapiens with 12 samples.

Results

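The comparison described here is the time step within cadmium-treated cells: 3 arrays of HK-2 cells after 48 h with CdCl, the cadmium chloride label of the series, against 3 arrays after 12 h with the same compound. HK-2 cells are an established human line, immortalised from the epithelium of the proximal tubule of the kidney. These 6 arrays were chosen by their treatment and time labels out of 12, and the other 6 are vehicle controls, 3 at 12 h and 3 at 48 h. All cultures were seeded 24 h before exposure and were nearly confluent when it began. They grew in a DMEM and F12 mixture holding 5 mM glucose, to which insulin, selenite, transferrin, hydrocortisone and EGF were added. The dose of CdCl is not given in the labels, and the control cells received the vehicle alone. All arrays come from 1 immortalised line, so they carry no donor variation. The labels call the 3 replicates of a group biological and do not say whether separate cultures stand behind them, so the p-values measure the spread between these arrays. Where a signal changes in RNA from a whole culture, fewer cells of a kind and less RNA per cell cannot be told apart.

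Cadmium is a toxic metal that enters the proximal tubule and binds thiol groups. Cells answer it with metallothioneins, small cysteine-rich proteins that chelate metals, with the antioxidant programme of the transcription factor NRF2 and with heat shock proteins, which refold damaged proteins. A second layer of the stress response lies in the endoplasmic reticulum (ER): the unfolded protein response raises ER chaperones, and the integrated stress response acts through the factors ATF4, CHOP (gene DDIT3) and ATF3 on amino acid supply. A single time point cannot tell a brief response from a lasting one. The comparison of 48 h with 12 h shows which of these programmes stayed at their level under exposure, which fell back and which came up late.

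Signals are log2 values, so a difference of 1 is a doubling. A gene is represented by its brightest probe set, and 10683 genes reached a log2 signal over 4 on at least 3 arrays and were tested with limma, a linear model fitted over all 12 arrays. "Rose" and "fell" are used for changes with a Benjamini-Hochberg adjusted p under 0.05. Control cells also spent the 12 h or 48 h in culture, so most results are given beside the same time step in control cells. The difference of changes is the CdCl change minus the control change, tested in the same model. A group with a mean under 4 was raised to that value for folds, which are then written as "at least", and a difference of changes that includes such a group rests in part on signal under the filter.

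Of the markers of proximal tubular epithelium, 6 of the 10 with a probe set (LRP2, CUBN, AQP1, SLC34A1, ANPEP and GGT1) stayed under 4 on all 12 arrays, while PAX8, KRT8, KRT18 and CDH6 were present. In CdCl cells the epithelial keratin KRT18 rose by 0.40 ± 0.07 (SE) and PAX8, a renal transcription factor, by 0.20, KRT8 changed by -0.07 and did not pass, and the cadherin CDH6 fell by 3.21. The PAX8 rise was called on its brightest probe set only. A dimmer one fell by 0.76 (adjusted p = 0.0136), and the others that reached the filter changed by 0.14 to 0.45 and did not pass. All 6 endothelial markers and all 4 leukocyte markers with a probe set were under 4 on every array. Of 7 fibroblast markers 4 were under 4 throughout, but the collagen-binding proteoglycans DCN and LUM and the collagen chain COL1A1 were not. LUM fell by 1.65, DCN by 0.74 and COL1A1 by 0.58 in CdCl cells, and each fell in control cells too. A second COL1A1 probe set changed by 0.04, and with the mean of all probe sets the COL1A1 call was lost (-0.11, adjusted p = 0.103). The mean signal of the 7 fibroblast markers ran from 5.61 to 5.64 on the 12 h CdCl arrays and from 5.22 to 5.26 on the 48 h arrays, and its part in the other results was not tested. Among distal and collecting duct markers the water channel AQP3 fell from a mean of 4.58 to 3.12, under the filter, and the sodium channel subunit SCNN1A rose by 0.34, and the podocyte marker SYNPO rose by 0.46. The SCNN1A call ended without replicate 3 at 12 h or replicate 1 or 2 at 48 h of CdCl (adjusted p from 0.0873 to 0.122). The SYNPO call ended without any 1 of the CdCl arrays other than replicate 1 at 48 h (adjusted p from 0.0577 to 0.147).

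Replicate arrays of the CdCl groups correlated at 0.9965 to 0.9982 and arrays of different times at 0.9828 to 0.985. The spiked poly-A control transcripts averaged 7.00 ± 0.04 (SD, n = 3) at 12 h and 6.31 ± 0.49 (SD, n = 3) at 48 h, and the hybridisation controls 10.62 ± 0.05 and 10.32 ± 0.21 (exact two-sided permutation p = 0.1 for each, the smallest that 3 against 3 arrays allow). Replicate 2 of the 48 h CdCl group stood apart in both, at 5.74 and 10.08. The 3′ to 5′ difference of actin, a sign of RNA quality, was 1.74 ± 0.05 (SD, n = 3) at 12 h and 1.63 ± 0.22 (SD, n = 3) at 48 h (exact permutation p = 0.6) in CdCl cells. In control cells it was 1.904 ± 0.199 and 1.495 ± 0.117 (SD, n = 3), that of GAPDH was 0.13 ± 0.09 and -0.008 ± 0.028, and the poly-A controls averaged 6.53 ± 0.13 and 6.14 ± 0.10 (exact two-sided permutation p = 0.1 for each, the smallest possible). The part of these shifts in the differences of changes was not tested.

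The treated state moved widely between the 2 times. In CdCl cells 3712 genes (34.7% of those tested) rose and 2946 (27.6%) fell. At 2-fold or more, 782 genes (7.32%) rose and 827 (7.74%) fell. Without replicate 2 at 48 h the counts were 3653 and 2758. The median change over all genes was 0.05. In control cells 2502 genes (23.4%) rose and 3574 (33.5%) fell, with a median change of -0.06. The gene list counts below are to be read beside these shares over all genes. The lists were chosen with earlier results of these data known. That choice can by itself move their counts away from these shares, so such a departure is a description only.

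Most of the large movements in CdCl cells had the same direction in control cells. Of the 782 genes that rose at least 2-fold, 584 (74.7%) also rose in control cells, 11 fell there and 187 were not called. Of the 827 that fell at least 2-fold, 654 (79.1%) also fell in control cells, 24 rose and 149 were not called. Across the 10683 genes the pair of time changes, which share no arrays, correlated with Pearson's r of 0.68 and Spearman's rho of 0.66. This is a description across genes, which are not independent replicates. The difference of changes itself passed the test with a positive value for 2888 genes (27.0%) and a negative value for 1394 (13.0%). List counts of positive and negative differences are to be read beside these shares. Among the 782 risers the difference passed with the CdCl change larger for 465 and smaller for 58, and did not pass for 259. Among the 827 fallers these numbers were 426, 51 and 350. These genes were picked by their CdCl change, which favours a larger change in CdCl than in control cells.

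**Figure D1:**
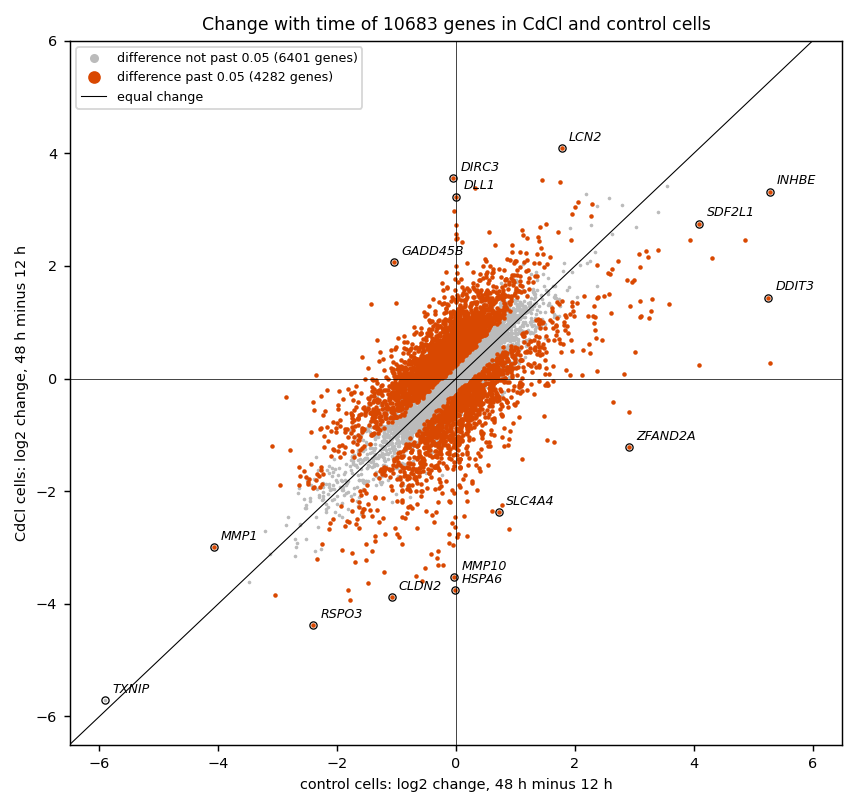
Log2 change from 12 h to 48 h of 10683 genes in control cells (x axis) and in CdCl cells (y axis). Each point is a gene, orange where the difference of changes passed an adjusted p of 0.05, the diagonal line marks equal change, and open circles mark named genes. TXNIP lies near the diagonal at the lower left, DDIT3 and INHBE lie far below it at the right, and DIRC3, DLL1, HSPA6 and MMP10 lie near the vertical axis, where the control change is 0.

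No change of the metallothioneins was called. None of the 8 tested members passed in CdCl cells with limma, and 0 had an unadjusted p under 0.05, while 1 passed without replicate 1 of CdCl or replicate 3 of control at 48 h. Their changes ran from -0.02 to 0.28 with a median of 0.06, close to that of all genes. In control cells 7 of the 8 fell, with a median of -0.66, and for 7 the difference of changes was positive. MT2A, a ubiquitous metallothionein, read 15.33, 15.30 and 15.29 at 12 h and 15.32, 15.36 and 15.36 at 48 h in CdCl cells, a change of 0.04 ± 0.06. It fell by 0.82 in control cells. The highest value of any probe set on these 6 arrays was between 15.67 and 15.77, so MT2A sat near the top of the scale at both times.

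MT1M, with the lowest control level of the metallothioneins named here apart from MT3, read 13.98, 13.92 and 13.93 at 12 h and 14.22, 13.99 and 14.19 at 48 h. Its change of 0.19 ± 0.14 did not pass the test (adjusted p = 0.252), although the arrays of the 2 times did not overlap. In control cells MT1M fell by 1.48. MT1X changed by 0.03 ± 0.07, MT1H by 0.17 ± 0.11 and MT1E by 0.06 ± 0.06. MT3, the form known from the brain, was at the filter level (3.96 to 4.78 on the 6 arrays) with a change of 0.28 ± 0.18. Probe sets of this family can cross-hybridise, and a second MT1X probe set changed by -0.18 (adjusted p = 0.0681).

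The metal response element, TGCNCNC with A or G as its first N, is the sequence through which the zinc-sensing factor MTF1 acts on metallothionein genes. The RefSeq promoter of MT1X (GRCh38.p14, chr16:56682220-56682519, plus strand, 250 bases before to 50 after the gene start) is shown because it holds 4 matches to TGCACNC or TGCGCNC on either strand, in capitals.
MT1X: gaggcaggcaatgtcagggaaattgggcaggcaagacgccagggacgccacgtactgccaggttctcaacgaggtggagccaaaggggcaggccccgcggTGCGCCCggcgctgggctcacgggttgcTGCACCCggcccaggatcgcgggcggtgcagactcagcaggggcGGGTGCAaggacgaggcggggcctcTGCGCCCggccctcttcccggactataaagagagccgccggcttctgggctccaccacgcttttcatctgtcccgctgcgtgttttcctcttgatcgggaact
Matches began between 150 and 53 bases before the start. Such a match was found in 29.6% of 35116 RefSeq promoters and in all 3 promoters listed for tested metallothioneins, those of MT2A, MT1H and MT1X.

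Zinc and metal transport genes moved mainly upward: 15 of 22 rose and 3 fell in CdCl cells, against 10 and 5 in control cells. The zinc importer SLC39A10 made the largest change and fell. It read 10.85, 10.94 and 10.94 at 12 h and 8.51, 8.55 and 8.53 at 48 h, a 5.19-fold fall, and in control cells it fell 3.00-fold. SLC39A7, which releases zinc from the ER, rose by 1.09 ± 0.27, and by 1.16 in control cells.

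Targets of NRF2 split. Of 32 tested, 6 rose and 17 fell in CdCl cells, with a median of -0.22, and 6 rose and 15 fell in control cells. HMOX1, which degrades haem, read 13.70, 13.77 and 13.84 at 12 h and 13.92, 13.99 and 14.02 at 48 h. This small rise of 0.21 ± 0.08 passed at an adjusted p of 0.0488, and the call ended without any 1 of the 6 CdCl arrays (adjusted p from 0.0518 to 0.147) and after centring the arrays (0.106). The call also ended with a replicate block (0.0774), with no filter (0.0637) and with every probe set tested separately (0.0603). GCLM, a subunit of the enzyme that starts glutathione synthesis, fell by 0.27 ± 0.07, and by 0.40 in control cells.

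NQO1, a quinone reductase, fell by 0.21 ± 0.08 (adjusted p = 0.032). That call ended without replicate 1 or 2 at 12 h or replicate 2 or 3 at 48 h, with adjusted p from 0.0794 to 0.101, and 2 other NQO1 probe sets changed by -0.36 and -0.99. The aldo-keto reductases made the large falls on this list. AKR1B10 read 7.04, 7.34 and 6.83 at 12 h and 4.07, 4.07 and 4.80 at 48 h, a 6.75-fold fall, and all control arrays lay under 4. AKR1C2 fell 7.04-fold, against 1.95-fold in control cells, on a probe set that can also capture its close relatives.

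Heat shock genes fell back. Of the 8 tested members of the HSP70 and HSP110 families 7 fell and 1 rose, with a median of -1.03. HSPA1A, HSPA1B and HSPA8 had no usable probe set. A second list of 26 tested genes held co-chaperones, small heat shock proteins, HSP90 genes, HSF1 and the mitochondrial HSPD1 and HSPE1. Of the 26, 19 fell and 3 rose, with a median of -0.51. In control cells the falls numbered 5 and 13. For 5 of the 8 and 13 of the 26 the difference of changes was negative. HSPA6, a strictly stress-inducible HSP70, read 11.11, 10.97 and 10.89 at 12 h and 7.28, 6.95 and 7.47 at 48 h. The groups were far apart, a 13.5-fold fall (adjusted p = 8.17e-10), and HSPA6 remained above the control arrays, which averaged 2.50 and 2.48. A second HSPA6 probe set fell by 3.94.

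The HSPA6 promoter (RefSeq, GRCh38.p14, chr1:161524290-161524589, plus strand) is shown with its heat shock element, to which heat shock factors bind, in capitals. It was searched on both strands as GAA, TTC and GAA with 2 bases between each.
HSPA6: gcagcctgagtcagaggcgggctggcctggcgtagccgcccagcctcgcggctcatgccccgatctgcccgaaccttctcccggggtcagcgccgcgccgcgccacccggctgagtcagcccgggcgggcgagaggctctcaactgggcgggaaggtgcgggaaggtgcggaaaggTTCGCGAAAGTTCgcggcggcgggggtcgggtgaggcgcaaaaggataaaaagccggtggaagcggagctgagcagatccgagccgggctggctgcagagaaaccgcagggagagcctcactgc
The match begins 74 bases before the start. The pattern was in 0.49% of all RefSeq promoters, in 1 of 9 promoters of the tested HSP70 and HSP110 genes and in 6 of 33 (18.2%) of those of the second heat shock list.

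BAG3, a co-chaperone that links HSP70 to autophagy, read 12.17, 12.28 and 12.28 at 12 h and 9.92, 10.12 and 10.15 at 48 h, a 4.55-fold fall against 1.88-fold in control cells. CHORDC1, a partner of HSP90, fell by 1.55 and DNAJB1, the HSP40 that feeds HSP70, by 1.30, and neither change passed in control cells. HSPA4L, an HSP110 relative, fell 3.16-fold, against 1.56-fold in control cells. ZFAND2A, a cadmium- and arsenite-inducible regulator of the proteasome, read 13.23, 13.24 and 13.37 at 12 h and 11.91, 12.14 and 12.14 at 48 h. It fell 2.32-fold in CdCl cells and rose 7.54-fold in control cells, from a mean of 6.31 to 9.23. Its difference of changes, -4.13 ± 0.21, was the lowest among the genes that passed both tests.

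**Figure D2:**
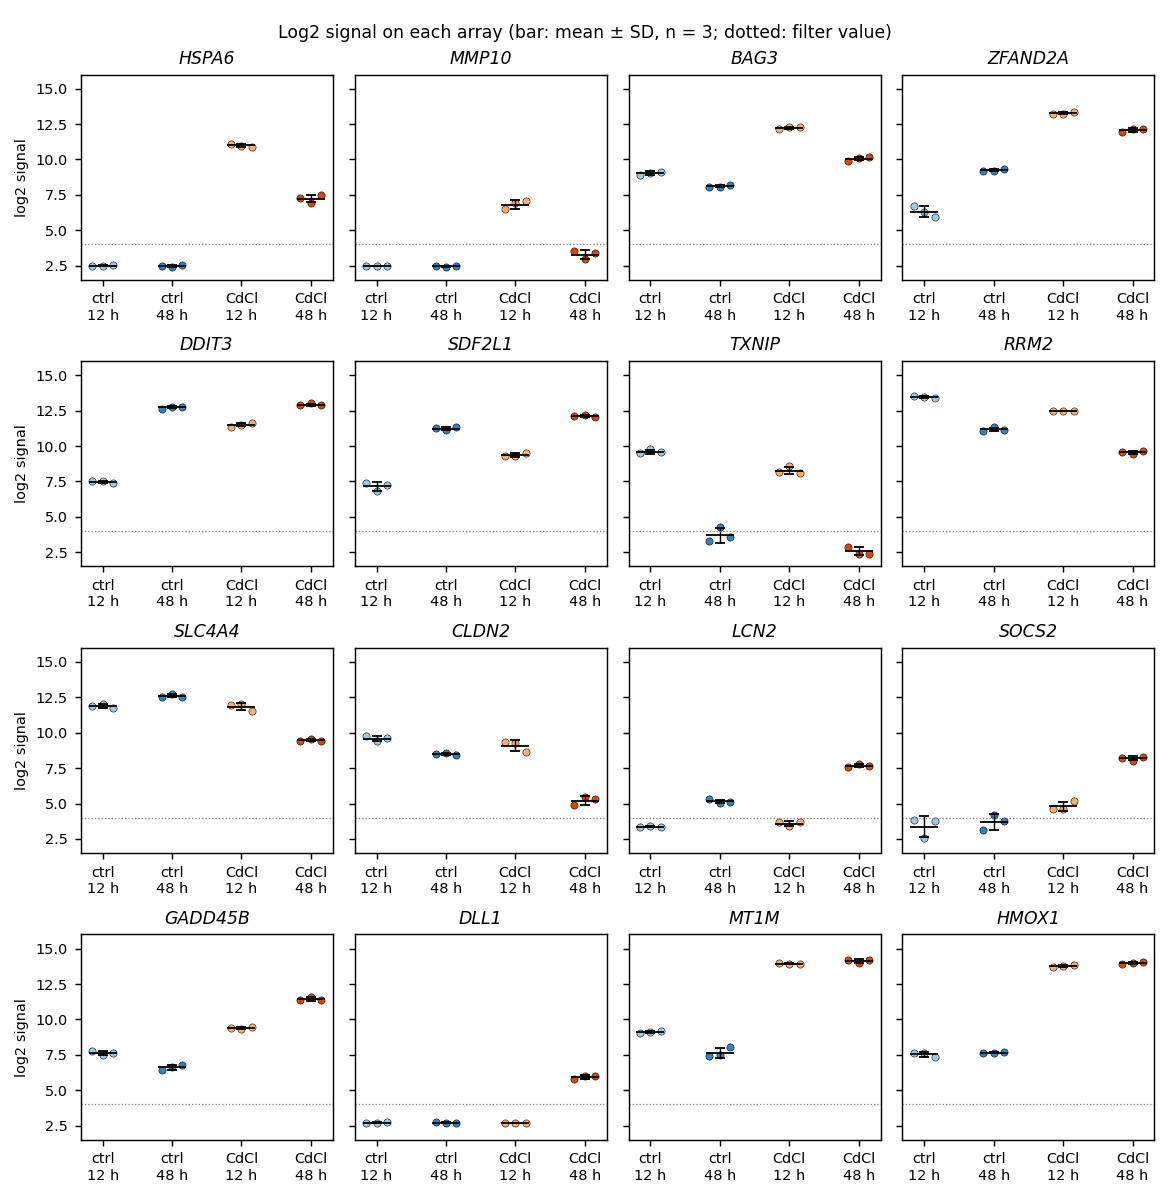
Log2 signal (y axis) of 16 genes on each of the 12 arrays, by treatment and time (x axis). Points are arrays, bars are the mean ± SD of 3 arrays, and the dotted line is the filter value of 4. HSPA6, MMP10, BAG3 and ZFAND2A fall in CdCl cells, LCN2, SOCS2, GADD45B and DLL1 rise there, and MT1M and HMOX1 read between 13.70 and 14.22 at both times.

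Genes of the ER rose, and control cells rose with them. Of 20 ER folding genes 19 rose and none fell in CdCl cells with limma (0 at an unadjusted p under 0.05), with a median of 1.10, and of 15 sensors and degradation factors of the unfolded protein response 13 rose, with a median of 0.96. In control cells 18 of the 20 and 15 of the 15 rose, with medians of 1.89 and 1.12. The median level of the ER folding genes at 12 h was 11.21 to 11.34 on CdCl arrays and 10.03 to 10.07 on control arrays. At 48 h it was 12.51 to 12.63 and 11.99 to 12.01. For the second list it was 9.65 to 9.74 and 8.51 to 8.57 at 12 h. At 48 h the second list stood at 9.68 to 10.06 and 9.74 to 10.22. SDF2L1, an ER co-chaperone, read 9.28, 9.32 and 9.52 at 12 h and 12.11, 12.20 and 12.08 at 48 h in CdCl cells, a 6.74-fold rise. In control cells it rose 17.0-fold from a mean of 7.15. HYOU1, the ER member of the HSP110 family, rose 6.45-fold in CdCl and 8.11-fold in control cells, and its difference of changes did not pass (-0.33 ± 0.15, adjusted p = 0.0966) except without replicate 2 at 48 h (adjusted p = 0.00421).

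ERO1B, an oxidase that supplies disulfide bonds, rose from 6.13, 6.27 and 6.26 to 8.65, 8.73 and 8.66, by 2.46 against 3.94 in control cells. Its promoter (RefSeq, GRCh38.p14, chr1:236281909-236282208, minus strand) is shown for its ER stress element, through which ATF6 and its partners act. It was searched on both strands as CCAAT, then 9 bases, then CCACG, and stands in capitals in reverse complement.
ERO1B: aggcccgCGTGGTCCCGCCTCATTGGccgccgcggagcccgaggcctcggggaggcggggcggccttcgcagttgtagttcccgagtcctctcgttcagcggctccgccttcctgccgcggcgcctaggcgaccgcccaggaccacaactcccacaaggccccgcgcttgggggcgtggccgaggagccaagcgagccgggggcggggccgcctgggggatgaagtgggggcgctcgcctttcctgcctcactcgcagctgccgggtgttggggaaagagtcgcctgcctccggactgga
The match begins 243 bases before the start. The pattern was in 0.077% of all RefSeq promoters and in 9 of the 28 (32.1%) promoters of tested ER folding genes, and in 1 of the 15 of the sensor and degradation list. Those 28 promoters belong to 19 genes, and overlapping promoters of the gene CANX count more than once among the 9.

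Among the sensors and degradation factors, EDEM2, which extracts misfolded glycoproteins, rose 3.32-fold in CdCl cells and 2.11-fold in control cells. SEL1L, a subunit of the degradation complex, rose 2.83-fold against 5.93-fold in control cells. ERN1, the sensor IRE1, rose 2.65-fold against 9.81-fold. EDEM2 therefore rose more in CdCl cells, and SEL1L and ERN1 more in control cells, each difference passing the test.

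The genes of the integrated stress response rose more in control cells. Of its 17 genes 13 rose and 1 fell in CdCl cells, with a median of 0.72, and 16 rose in control cells, with a median of 1.84. For 16 of the 17 the difference of changes was negative. The CdCl arrays started higher: at 12 h the median level of these genes was 9.32 to 9.59, against 7.40 to 7.53 on control arrays. At 48 h it was still higher in CdCl cells, 10.51 to 10.56 against 9.08 to 9.30. DDIT3, which encodes the stress factor CHOP, read 11.38, 11.51 and 11.60 at 12 h and 12.89, 13.02 and 12.89 at 48 h in CdCl cells, a 2.71-fold rise. In control cells it rose 38.0-fold, from a mean of 7.48 to 12.73, so the arms lay far apart at 12 h and near each other at 48 h. The CdCl change minus the control change was -3.81 ± 0.11 (adjusted p = 4.22e-09).

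ATF3, a stress-induced repressor, read 10.79, 10.89 and 10.89 at 12 h and 11.14, 11.15 and 11.10 at 48 h. The change of 0.28 ± 0.17 did not pass (adjusted p = 0.178), although the arrays did not overlap. It passed in the fit to the 6 CdCl arrays alone (adjusted p = 0.00888), and a second probe set rose by 0.48. In control cells ATF3 rose at least 36.0-fold, from 3.88 to 9.17. NUPR1, a stress-induced chromatin protein, rose 5.53-fold in CdCl and at least 28.8-fold in control cells. GDF15, a secreted stress cytokine, rose 2.69-fold and 5.17-fold, and TRIB3, a pseudokinase induced by CHOP, 1.53-fold and 4.71-fold.

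Amino acid synthesis genes rose as well. Of 20 genes of amino acid synthesis and tRNA charging 17 rose and 2 fell in CdCl cells, with a median of 0.96, and 18 rose in control cells, with a median of 1.36. ALDH1L2, a mitochondrial folate enzyme, rose from 5.82, 6.05 and 6.31 to 9.10, 8.63 and 9.34, a 7.77-fold rise. AARS1, the alanine tRNA ligase, rose 4.15-fold. In control cells these genes rose 10.5-fold and 4.58-fold, and neither difference of changes passed (adjusted p = 0.236 and 0.479).

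Amino acid transporters moved both ways in CdCl cells. Of 15, 4 rose and 8 fell, with 5 fallers without replicate 3 at 12 h, while 10 rose and 1 fell in control cells, and the difference of changes was negative for 11. SLC3A2, the heavy chain of several exchangers, rose 4.80-fold in CdCl and 9.17-fold in control cells. SLC6A6, the taurine transporter, fell 3.84-fold and 5.30-fold, and the sign of its difference of changes depended on the probe sets used. SLC7A11, the cystine importer, read 10.70, 10.73 and 11.04 at 12 h and 11.00, 11.00 and 11.20 at 48 h in CdCl cells. Its change of 0.24 ± 0.10 did not pass (adjusted p = 0.0636), though it did without replicate 3 at 12 h (0.00907), and 2 other probe sets changed by -0.35 and 0.12. In control cells SLC7A11 rose 17.1-fold.

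Cell cycle transcripts fell in both arms. All 30 mitotic genes fell in CdCl cells, with a median of -1.81, and all 30 fell in control cells, with a median of -1.97. Of 35 replication genes 33 fell in each arm, with medians of -1.82 and -1.54. The difference of changes was negative for 14 of the 35 replication genes and positive for 5, and among the mitotic genes it was negative for 2 and positive for 5. Over all genes it was negative for 13.0% and positive for 27.0%. RRM2, the inducible subunit of ribonucleotide reductase, read 12.51, 12.48 and 12.47 at 12 h and 9.57, 9.46 and 9.64 at 48 h, a 7.63-fold fall against 4.79-fold in control cells.

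GINS4, part of the replicative helicase, fell at least 4.99-fold in CdCl cells and 2.58-fold in control cells. CDT1, which licenses replication origins, read 7.72, 7.62 and 7.71 at 12 h and 5.68, 4.99 and 5.20 at 48 h. It fell 5.25-fold in CdCl cells and 1.78-fold in control cells, and the difference of changes was -1.56 ± 0.20. The CDT1 promoter (RefSeq, GRCh38.p14, chr16:88803539-88803838, plus strand) is shown because it holds an E2F element, the site of the factors that switch on replication genes, searched on both strands as TTT followed by CCCGC or GGCGC and set in capitals.
CDT1: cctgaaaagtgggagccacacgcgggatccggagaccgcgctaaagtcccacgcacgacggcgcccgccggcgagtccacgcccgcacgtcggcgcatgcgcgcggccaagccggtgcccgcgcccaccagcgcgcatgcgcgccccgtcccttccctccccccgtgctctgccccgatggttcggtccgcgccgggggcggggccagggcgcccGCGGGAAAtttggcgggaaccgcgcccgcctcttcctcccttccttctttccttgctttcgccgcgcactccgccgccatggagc
The match begins 35 bases before the start. The pattern was in 2.27% of all RefSeq promoters and in 15 of 37 (40.5%) of those of tested replication genes.

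Among mitotic genes KIF20A, a kinesin of the spindle midzone, fell 5.65-fold in CdCl cells and 4.19-fold in control cells. CENPE, a kinetochore motor, fell 5.52-fold and 7.14-fold. The proliferation marker MKI67 fell from 8.51, 8.42 and 8.48 to 6.24, 5.89 and 6.54, and CCNB1, the mitotic cyclin, fell 3.61-fold against 3.58-fold in control cells. For CENPE, MKI67 and CCNB1 the difference of changes did not pass (adjusted p = 0.0529, 0.327 and 0.931).

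Of 12 CDK inhibitors and D cyclins 4 rose and 3 fell in CdCl cells, against 1 and 5 in control cells. The cyclin CCND3 fell 2.40-fold, against 2.06-fold in control cells. The inhibitor CDKN1C read 8.60, 8.61 and 8.59 at 12 h and 9.63, 9.57 and 9.64 at 48 h, a 2.02-fold rise, and its control change did not pass. Its dimmer probe sets that reached the filter rose by 2.79, 2.07 and 2.43 in CdCl cells. CDKN1A, the p21 inhibitor, rose by 0.42 ± 0.08, against 0.35 in control cells.

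Histone genes were few: of 8 tested, 2 rose and 5 fell in CdCl cells, and 3 rose and 4 fell in control cells. H2AC6 rose 3.35-fold, against 7.31-fold in control cells, and H1-2 fell 3.32-fold, against 1.97-fold. Of 19 p53 targets 11 rose and 2 fell in CdCl cells, with a median of 0.42, against 8 and 6 in control cells. The fallers were the death receptor FAS, down 3.38-fold against 1.74-fold in control cells, and the antioxidant SESN1, down 2.92-fold with a control change that did not pass. GADD45B, a stress and growth arrest gene, moved in opposite directions in the arms. It read 9.41, 9.31 and 9.44 at 12 h and 11.37, 11.60 and 11.39 at 48 h in CdCl cells, a 4.19-fold rise, while control cells fell 2.06-fold. Of its other probe sets, those that reached the filter rose by 2.23 and 2.33 in CdCl cells.

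Of 17 apoptosis genes of the BCL2 family and its partners 8 rose and 4 fell, against 7 and 4 in control cells. HRK, a BH3-only activator of apoptosis, rose from 5.02, 5.04 and 4.93 to 7.63, 7.88 and 7.72, a 6.71-fold rise, against at least 1.77-fold in control cells. CASP2, an initiator caspase, fell 1.87-fold, against 1.90-fold in control cells.

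Transport, enzyme and other genes of the proximal tubule list mostly fell in CdCl cells. Of 32 on the list 15 did not reach the filter and 3 had no usable probe set. Of the 14 tested, 11 fell and 2 rose, with a median of -1.51, while in control cells 5 fell and 4 rose, with a median of -0.12. SLC4A4, the basolateral sodium bicarbonate cotransporter, read 11.93, 12.01 and 11.56 at 12 h and 9.43, 9.54 and 9.40 at 48 h, a 5.19-fold fall. It rose 1.64-fold in control cells, and the difference of changes was -3.09 ± 0.16 (adjusted p = 4.7e-07). SLC6A13, a transporter of GABA and taurine, fell 4.73-fold in CdCl cells and rose 1.71-fold in control cells.

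CLDN2, the claudin that makes the proximal tubule leaky to cations, read 9.36, 9.28 and 8.63 at 12 h and 4.86, 5.48 and 5.29 at 48 h. Its 14.7-fold fall compared with 2.12-fold in control cells. CDH6, a cadherin of the nephron precursor and proximal tubule, fell 9.28-fold against 2.88-fold. Of the 5 other CDH6 probe sets, 4 fell by 3.19 to 4.20 and the dimmest did not pass.

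Genes of tubular injury did not share 1 direction. Of 22, 4 rose and 13 fell in CdCl cells, and 4 rose and 12 fell in control cells. LCN2, which encodes the injury marker NGAL, made the largest rise of all genes tested, by fitted change and also with groups under 4 set to 4. It read 3.67, 3.41 and 3.66 at 12 h, under the filter, and 7.57, 7.81 and 7.64 at 48 h, a rise of at least 12.8-fold (adjusted p = 2.08e-10). In control cells the rise was at least 2.22-fold.

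HAVCR1, the kidney injury marker KIM-1, went the other way: it read 10.01, 9.99 and 10.02 at 12 h and 8.93, 8.97 and 8.74 at 48 h, a 2.17-fold fall, while control cells rose 1.41-fold. VCAM1, an adhesion molecule of injured tubules, fell 8.33-fold in CdCl cells, and its control change did not pass. SOX9, a factor of tubule repair, fell 6.12-fold, against 3.67-fold in control cells, and its difference of changes (-0.74, adjusted p = 0.0261) no longer passed without replicate 2 of CdCl at 12 h or replicate 2 or 3 of control at 48 h (adjusted p from 0.0581 to 0.0599).

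Most genes of the junction list rose: 10 of 15 rose and 2 fell in CdCl cells, with a median of 0.54, against 8 and 4 in control cells. That list leaves out the claudin CLDN2 and the cadherin CDH6, counted with the proximal tubule genes above, which fell by 3.88 and 3.21. E-cadherin, CDH1, read 6.61, 6.89 and 6.90 at 12 h and 8.59, 8.41 and 8.65 at 48 h, a 3.37-fold rise, and occludin, OCLN, rose 3.30-fold. Both rose less in control cells, 1.95-fold and 1.97-fold, and both differences passed (adjusted p = 0.007 and 0.0026). Among mesenchymal and matrix genes 4 of 21 rose and 12 fell in CdCl cells, with a median of -0.58, against 1 and 11 in control cells. SNAI2, the repressor Slug, was among the risers at 2.74-fold, from 5.56, 5.34 and 5.99 to 7.08, 6.89 and 7.29, while all control arrays lay under 4.

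Secreted proteases made the largest matrix changes. MMP10, stromelysin-2, read 6.48, 6.90 and 7.05 at 12 h and 3.51, 2.94 and 3.40 at 48 h in CdCl cells, a fall of at least 7.02-fold. It averaged 2.47 and 2.44 in control cells at the 2 times, so the 12 h CdCl group alone lay above the filter. A gene that reaches the filter in this way can appear only as a faller of CdCl cells. MMP1, interstitial collagenase, fell 7.98-fold in CdCl cells and at least 10.0-fold in control cells. THBS1, a matrix glycoprotein, fell 7.23-fold against 5.75-fold in control cells, and 1 of its other probe sets, at a lower level, by only 0.56.

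Genes and targets of the TGF-beta, activin and YAP pathways fell too, 13 of 19 with 3 rising, with a median of -0.59, against 10 and 2 in control cells. INHBA, the activin subunit, read 9.16, 9.30 and 9.44 at 12 h and 6.36, 6.73 and 6.89 at 48 h, a 6.23-fold fall, and fell at least 2.88-fold in control cells. ANKRD1, a nuclear target of YAP, fell 5.44-fold in CdCl cells, while its control arrays stayed under 4 at both times.

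Inflammatory genes fell. Of 22 NF-kB and cytokine genes 13 fell and 1 rose in CdCl cells, with a median of -0.48, while 5 fell and 7 rose in control cells. IL11, a cytokine of the IL-6 family, read 7.23, 7.22 and 7.45 at 12 h and 3.77, 4.06 and 5.21 at 48 h, a 7.76-fold fall, with all control arrays under 4. IL6 fell 2.85-fold, from 7.26, 7.11 and 7.30 to 5.62, 5.77 and 5.73, and at least 1.46-fold in control cells. CCL2, a monocyte chemokine, fell at least 2.33-fold, with 1 of its 12 h arrays (4.02) well below the other two (5.87 and 5.76).

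The feedback inhibitors of cytokine receptors parted. SOCS3 fell 4.92-fold in CdCl cells on its brightest probe set, against 1.67-fold in control cells, and the dimmer ones that reached the filter changed by -0.98 and -0.05. SOCS2, which acts on growth hormone and JAK-STAT signalling, was the 1 riser of the list, which had 2 without replicate 3 at 48 h of CdCl. It read 4.64, 4.62 and 5.15 at 12 h and 8.24, 8.04 and 8.31 at 48 h, a 10.5-fold rise, and its control change of 0.32 did not pass. A second SOCS2 probe set rose by 4.12.

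Immediate early genes fell more often than they rose, 10 against 2 of 21, and 8 against 5 in control cells. The risers numbered 1 without replicate 1 or 2 at 12 h or replicate 2 at 48 h of CdCl. DUSP6, the ERK phosphatase, fell 3.46-fold, against 1.92-fold in control cells. FOSL2, an AP-1 subunit, fell 2.96-fold on its brightest probe set, against 2.31-fold in control cells, and the 3 others that reached the filter changed by -0.02, -0.11 and -1.16. Of 12 genes of the EGF family and its feedback 2 rose and 7 fell, against 4 and 5 in control cells. The ligand BTC rose 6.43-fold, from 4.49, 4.40 and 4.54 to 7.14, 7.17 and 7.18, while the ligand HBEGF fell 3.21-fold. Control cells moved in the same directions, 2.65-fold and 2.09-fold.

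Interferon-stimulated genes were divided, with 9 of 19 up and 8 down in CdCl cells (34.7% and 27.6% over all genes). In control cells 7 were up and 5 down (23.4% and 33.5% over all genes). Without replicate 1 or replicate 2 at 12 h of CdCl the fallers numbered 5. IFIT1, an antiviral RNA-binding protein, fell 6.80-fold, from 7.72, 7.52 and 7.19 to 5.29, 3.98 and 4.85. The interferon regulatory factor IRF1 rose 4.16-fold. In control cells IFIT1 fell 1.99-fold and IRF1 rose 2.62-fold.

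**Figure D3:**
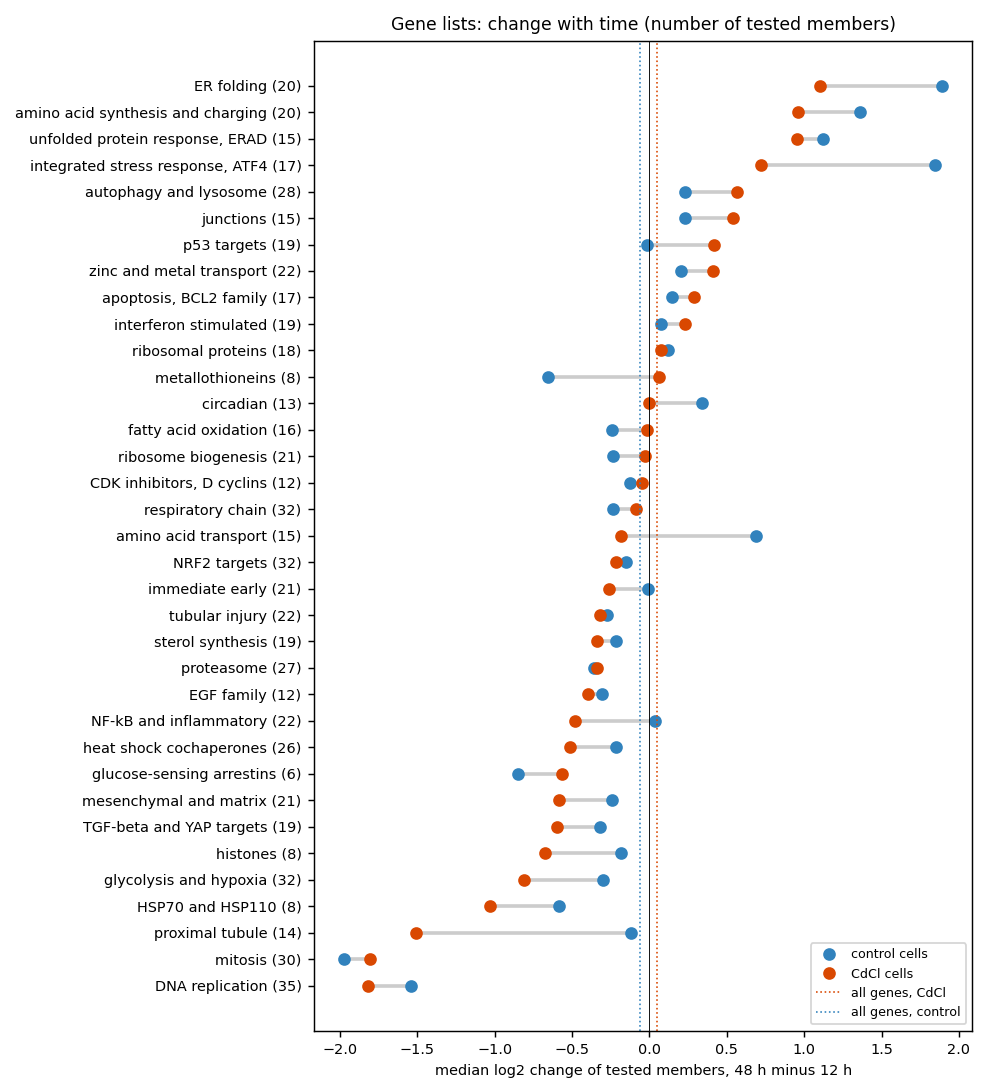
Median log2 change from 12 h to 48 h (x axis) of the tested members of each gene list (y axis, with their number), in CdCl cells (orange) and control cells (blue). Dotted lines mark the median of all 10683 genes in each arm. Replication and mitosis lie lowest in both arms, the ER and stress response lists lie at the top, and proximal tubule (-1.51 against -0.12) and integrated stress response (0.72 against 1.84) lie far apart between the arms.

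Transcripts of glycolysis and hypoxia genes fell. Of 32 on this list 28 fell and 2 rose in CdCl cells (1 rose without any 1 of 5 CdCl arrays, all but replicate 3 at 12 h, or without replicate 2 of control at 48 h), with a median of -0.81, against 15 and 6 in control cells, with a median of -0.30. The difference of changes was negative for 20 of the 32. EGLN3, an oxygen-sensing prolyl hydroxylase, fell from 5.38, 5.78 and 6.11 to 3.19, 2.52 and 2.48, at least 3.38-fold. PFKFB4, which sets the level of a glycolytic activator, fell at least 3.09-fold, and CA12, a membrane carbonic anhydrase, 4.12-fold. In control cells PFKFB4 stayed under 4 at both times and the change of CA12 did not pass. PFKFB4 thus averaged over 4 only at 12 h in CdCl cells, and the filter favours a fall in such a gene.

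TXNIP, the thioredoxin-binding arrestin whose transcription follows cellular glucose, had the largest fitted change of the genes tested (-5.72), on 48 h signal under the filter. It read 8.17, 8.57 and 8.09 at 12 h and 2.89, 2.38 and 2.41 at 48 h, a fall of at least 19.4-fold. Control cells fell at least 48.5-fold. Both 48 h groups averaged under 4, so the falls cannot be ranked against each other. A second TXNIP probe set fell by 5.10 in CdCl cells. The TXNIP promoter (RefSeq, GRCh38.p14, chr1:145996530-145996829, minus strand) is shown with its carbohydrate response element, bound by the glucose-responsive MondoA and ChREBP complexes, in capitals. It was searched on both strands as CACGNG, then 5 bases, then CACGNG.
TXNIP: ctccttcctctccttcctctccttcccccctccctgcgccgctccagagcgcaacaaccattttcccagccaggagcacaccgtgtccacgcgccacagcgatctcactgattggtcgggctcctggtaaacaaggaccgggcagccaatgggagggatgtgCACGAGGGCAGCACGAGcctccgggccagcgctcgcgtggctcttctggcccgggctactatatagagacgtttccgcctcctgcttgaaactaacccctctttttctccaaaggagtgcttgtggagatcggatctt
The match begins 88 bases before the start. The pattern was in 0.057% of all RefSeq promoters and in 1 of the 9 promoters of the 6 arrestin and glucose-sensing genes. Of these 6 genes 4 fell and 1 rose, and for none did the difference of changes pass with limma, while 2 had an unadjusted p under 0.05. ARRDC3, a second arrestin, fell 3.45-fold, against 2.62-fold in control cells, and its difference of changes (adjusted p = 0.0752) passed without replicate 3 at 12 h or at 48 h of CdCl (0.0331 and 0.0288).

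Sterol synthesis genes fell in part, 10 of 19 with 3 rising, against 9 and 5 in control cells. HMGCS1, which makes the precursor of cholesterol, read 11.01, 11.10 and 11.03 at 12 h and 9.11, 9.00 and 9.15 at 48 h, a 3.90-fold fall, and INSIG1, the brake on sterol sensing, fell 3.24-fold. Control cells fell less on these probe sets, 1.74-fold and 1.64-fold. A second HMGCS1 probe set changed by -2.07 in CdCl and 0.48 in control cells. Other INSIG1 probe sets changed by -0.62 and -1.53 in CdCl cells and by -0.79 and -1.01 in control cells. Of 16 genes of fatty acid oxidation 4 rose and 4 fell, against 3 and 9 in control cells. The coactivator PPARGC1A fell 2.60-fold and the enoyl isomerase ECI1 rose 2.25-fold, and both moved in the same directions in control cells.

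Of 32 respiratory chain genes 8 rose and 13 fell in CdCl cells and 2 rose and 19 fell in control cells. Without replicate 3 at 12 h or replicate 1 at 48 h of CdCl the risers numbered 5. The largest changes were those of the complex I subunits NDUFA2 and NDUFB3, which fell by 0.80 and 0.69. Of 27 proteasome genes 17 fell and 3 rose, with PSMD1 and PSMC1, of the regulatory particle, down by 0.87 and 0.86. In control cells 22 fell and none rose, and the difference of changes was positive for 11 of the 27 and negative for none with limma, where 1 had a negative difference at an unadjusted p under 0.05. Over all genes the difference was positive for 27.0% and negative for 13.0%.

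Autophagy and lysosome genes rose: 18 of 28, with 1 falling (2 without replicate 2 of CdCl at 48 h or replicate 1 of control at 12 h), at a median of 0.57, against 15 and 3 in control cells. CTSD, the lysosomal protease cathepsin D, read 7.92, 7.96 and 7.73 at 12 h and 9.55, 9.50 and 9.27 at 48 h. This was a 2.97-fold rise, and the control change of 0.13 did not pass. WIPI1, which acts in autophagosome formation, rose 2.76-fold, against 4.44-fold in control cells, and the autophagy receptor OPTN 2.74-fold, against 1.22-fold.

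Of 21 ribosome biogenesis genes 5 rose and 6 fell, against 3 and 10 in control cells, and 3 rose without replicate 1 at 12 h or replicate 3 at 48 h of CdCl. RRP12 rose by 0.73 and UTP20 fell by 0.58. Of 18 ribosomal protein genes 5 rose and 1 fell in CdCl cells, with RPL3 up by 0.29 and RPL30 by 0.25, against 5 and 0 in control cells. Without any 1 CdCl array the ribosomal protein risers numbered 2 to 4, and the faller was lost without replicate 1 or 2 at 12 h or replicate 1 at 48 h. After centring the arrays the ribosome biogenesis risers numbered 3, and the ribosomal proteins counted 3 risers and 2 fallers. Of 13 clock genes 4 rose and 4 fell, against 7 and 3 in control cells, with BHLHE40 down by 1.00 and NR1D2 up by 0.95, against 1.81 for NR1D2 in control cells.

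Beyond the lists, the 15 largest falls and the 15 largest rises by fitted change whose arrays did not overlap between the times were followed across all arrays. Such separation was common, with 4060 genes (38.0%) upward and 3209 (30.0%) downward. Among the falls RSPO3, which amplifies WNT signalling, read 9.00, 9.38 and 9.09 at 12 h and 4.64, 4.76 and 4.92 at 48 h, a 20.8-fold fall against at least 2.87-fold in control cells. DEFB1, an epithelial antimicrobial peptide, fell 15.2-fold against 3.45-fold. PDK4, which restrains pyruvate oxidation, fell 12.4-fold against 2.79-fold, and CYP1B1, a target of the aryl hydrocarbon receptor, 13.5-fold against 3.55-fold. ID1, an inhibitor of differentiation factors, fell 10.8-fold against 2.32-fold.

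ADAMTS9, a secreted metalloprotease, fell 12.1-fold, and TNS1, a focal adhesion protein, at least 5.99-fold, with control falls of 1.49-fold and 1.59-fold. A dimmer TNS1 probe set fell by only 0.46. EID3, part of a chromatin complex, fell at least 8.01-fold and KCTD12, an auxiliary subunit of the GABA-B receptor, at least 5.88-fold, and neither control change passed. ENPP3, an ectonucleotidase, fell at least 5.53-fold in CdCl cells and rose 1.85-fold in control cells. TNFAIP6, a hyaluronan-binding protein, and SCN3A, a sodium channel, fell at least 8.80-fold and at least 8.38-fold in CdCl cells and at least 4.13-fold and at least 6.26-fold in control cells. For SCN3A the difference of changes did not pass (adjusted p = 0.757). For TNFAIP6 it passed narrowly (-0.79, adjusted p = 0.0434) and did not without replicate 3 of CdCl at 12 h, replicate 1 or 3 of CdCl at 48 h, replicate 1 or 3 of control at 12 h, or replicate 2 or 3 of control at 48 h (adjusted p from 0.0643 to 0.101).

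Among the rises, several genes came up in CdCl cells with control arrays flat and low. DLL1, a ligand of Notch receptors, read 2.69, 2.68 and 2.71 at 12 h and 5.79, 5.98 and 6.00 at 48 h, a rise of at least 3.80-fold, while control cells stayed at 2.70. DIRC3, a long non-coding RNA, rose 11.8-fold from 3.91, 4.68 and 5.56 to 8.32, 8.27 and 8.24, with control cells at 3.31 and 3.26. ARC, known as an activity-regulated gene of neurons, rose at least 3.17-fold, with a wide spread at 48 h (4.54, 6.58 and 5.87). With groups under 4 set to 4, the CdCl change exceeded the control change by 1.92 for DLL1, 3.56 for DIRC3 and 1.66 for ARC. DLL1 and ARC averaged over 4 only in CdCl cells at 48 h. Genes that reach the filter through that group alone can appear only as risers of CdCl cells, so the filter favours this pattern.

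Others rose in both arms. INHBE, a liver and stress activin subunit, read 7.77, 7.82 and 8.13 at 12 h and 11.27, 11.18 and 11.22 at 48 h, a 9.98-fold rise against 38.7-fold in control cells. LAMP3, an inducible lysosomal protein, rose at least 4.09-fold against at least 5.09-fold, and ITPKA, an inositol phosphate kinase, 8.49-fold against 6.93-fold. RAB39B, a vesicle GTPase, rose at least 10.3-fold, and TMEM140 at least 7.99-fold, and for both the CdCl change was the larger (adjusted p = 0.000105 and 0.000227). ESRP1, an epithelial splicing regulator, rose 8.75-fold against 4.15-fold, and MSTO1, a mitochondrial morphology gene, 8.54-fold against 4.86-fold.

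ISG20, an interferon-induced exonuclease, rose 9.76-fold, FBXO16, an F-box protein, at least 6.79-fold, CRELD1, a membrane protein with EGF repeats, at least 7.75-fold, and BEX5 8.27-fold. In control cells they rose at least 3.11-fold, at least 3.07-fold, at least 4.49-fold and 4.01-fold. The difference of changes did not pass for ISG20 (adjusted p = 0.0529), FBXO16 (0.152) or CRELD1 (0.0826). For BEX5 it passed at 0.0396 and not without any 1 of 9 arrays (adjusted p from 0.06 to 0.0863) or after centring (0.0501). For ISG20 it passed without replicate 3 of CdCl or replicate 1 of control at 12 h (0.0245 and 0.00323). The ISG20 difference also passed with a filter at 6 (0.0394), quantile normalization (0.0486) and the mean of all probe sets (0.00899). A replicate block (0.0234) and an intensity trend (0.0364) gave the same.

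**Figure D4:**
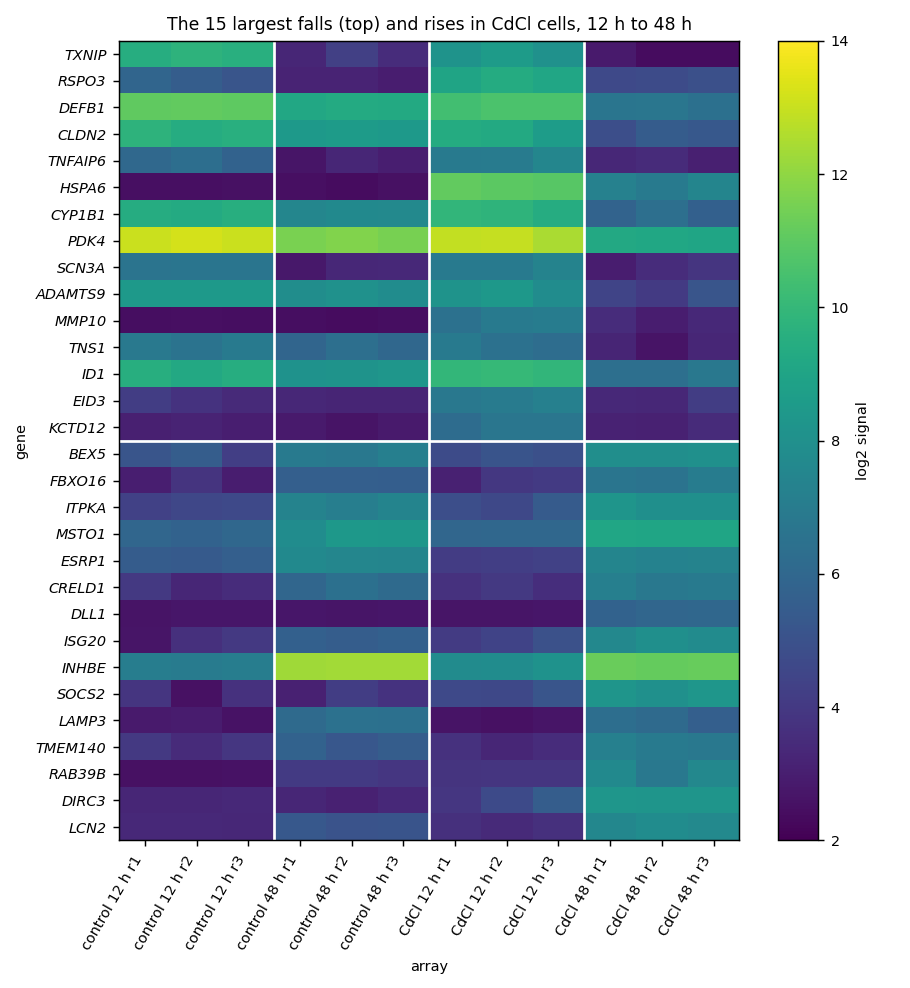
Log2 signal (colour scale) on each of the 12 arrays (x axis) of the 15 genes with the largest falls and the 15 with the largest rises in CdCl cells (y axis, falls above the white line). Columns are grouped by treatment and time. HSPA6, MMP10 and KCTD12 are brightest on the 12 h CdCl arrays, DLL1, SOCS2 and DIRC3 are brightest on the 48 h CdCl arrays, and TXNIP and SCN3A fall and LAMP3 rises in both arms.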

How the data were processed

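RNA of HK-2 cells was hybridised to 12 Affymetrix arrays. The authors deposited log2 values made with GCRMA, per the submitters' processing notes, for 54675 probe sets, which corrects background and normalizes between arrays, so changes of total RNA are not seen and low signals are compressed. Of these, 41091 had 1 gene symbol in GEO's platform annotation, 1801 had several and 11721 had none, besides 62 control probe sets. They name 19775 genes, of which 10683 had a log2 value over 4 on at least 3 arrays, each represented by the brightest of its probe sets on average.

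Group means were fitted with limma 3.58.1 (lmFit, eBayes, two-sided) in R 4.3.3 over the 4 groups of 3 arrays, with Benjamini-Hochberg adjustment over all genes tested. On simulated data for 10683 genes, 59.7% of 67 genes changed by 0.5, 94.0% of 67 by 1 and 100% of 66 by 2 were recovered for the CdCl comparison. Among the unchanged genes there were 13 false calls. The simulated noise was independent between genes and arrays. Far fewer genes were changed than were called in the data, so these rates may not carry over to it. Array controls used exact permutation tests.

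Named were the 15 largest rises and falls with arrays that did not overlap, at least the first 2 of the 4 largest changes in each of the 39 gene and marker lists with tested members, the 5 highest and 5 lowest differences of changes among genes that also passed the CdCl comparison, and 22 index genes, of which HSPA1B had no usable probe set. The members and lists were chosen with earlier results of these data known. Alternatives were the filter, centring, quantile normalization, the choice of probe set, a replicate block, an intensity trend, the 6 CdCl arrays alone and leaving out each array. Promoters came from RefSeq.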

Additional observations from a re-analysis of the deposited data

Results flagged for a closer look

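The change with time differed between CdCl and control cells by a test of the difference itself. With limma, the difference was positive for 2888 genes and negative for 1394, and 95 of the named genes were among them. Their values, in brackets, are the CdCl change minus the control change on the log2 scale. The results above give both changes of most of these genes, and the causes were not tested. Of the 95, 26 had at least 1 group mean under 4, where the size of the difference rests in part on signal under the filter. With such groups set to 4 the sign was the same for all 26, and the difference was 1.92 for DLL1, 1.66 for ARC and 0.33 for MMP1.

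Among stress genes the difference was negative, with control cells gaining more, for ATF3 (-5.01), SLC7A11 (-3.86), DDIT3 (-3.81), NUPR1 (-2.39), INHBE (-1.96) and TRIB3 (-1.62). The same sign was seen for GDF15 (-0.95), SDF2L1 (-1.34), ERO1B (-1.48), ERN1 (-1.89), SEL1L (-1.06) and SLC3A2 (-0.93), and for ZFAND2A (-4.13). It was positive for EDEM2 (0.65) and SLC6A6 (0.46). For heat shock genes it was negative for HSPA6 (-3.73), BAG3 (-1.27), CHORDC1 (-1.39), DNAJB1 (-1.18) and HSPA4L (-1.02).

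Metal-binding genes had positive differences, in MT1M (1.68), MT1H (0.87), MT2A (0.85), MT1X (0.65) and MT1E (0.63). The zinc importer SLC39A10 (-0.79) had a negative one. Among NRF2 targets the difference was negative for AKR1B10 (-2.78) and AKR1C2 (-1.85) and positive for NQO1 (0.55).

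Tubular and junction genes with negative differences were SLC4A4 (-3.09), SLC6A13 (-3.01), CLDN2 (-2.80), VCAM1 (-2.75), CDH6 (-1.69) and HAVCR1 (-1.62), and SOX9 (-0.74). Positive differences were seen for LCN2 (2.32), CDH1 (0.79), OCLN (0.75) and SYNPO (0.71). Matrix and signalling genes were negative for MMP10 (-3.50), IL11 (-2.90), ANKRD1 (-2.58), SOCS3 (-1.56), DUSP6 (-0.85) and HBEGF (-0.62), and for IL6 (-0.54), FOSL2 (-0.36) and IFIT1 (-1.78). They were positive for SOCS2 (3.07), SNAI2 (1.52), BTC (1.28), MMP1 (1.08) and IRF1 (0.67), and the IRF1 call depended on the probe sets used.

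In the cell cycle the difference was negative for CDT1 (-1.56), GINS4 (-1.44), RRM2 (-0.67), KIF20A (-0.43) and H2AC6 (-1.13) and positive for CDKN1C (0.80). Of p53 and apoptosis genes it was positive for GADD45B (3.11) and HRK (1.23) and negative for SESN1 (-1.20) and FAS (-0.96). Metabolic and clock genes were negative for PFKFB4 (-2.02), CA12 (-1.81), PDK4 (-2.16), HMGCS1 (-1.17), INSIG1 (-0.98) and PPARGC1A (-0.49), and for BHLHE40 (-0.93), NR1D2 (-0.86) and WIPI1 (-0.68). They were positive for CTSD (1.44), OPTN (1.17), ECI1 (0.55) and PSMD1 (0.33).

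Of the other large falls the difference was negative for ENPP3 (-3.55), ADAMTS9 (-3.02), KCTD12 (-3.01), TNS1 (-2.84), EID3 (-2.83) and ID1 (-2.22), and for DEFB1 (-2.14), RSPO3 (-1.98), CYP1B1 (-1.93) and TNFAIP6 (-0.79). Of the other large rises it was positive for DIRC3 (3.61), DLL1 (3.23), ARC (3.01), RAB39B (2.09), TMEM140 (1.75) and ESRP1 (1.08), and for BEX5 (1.04) and MSTO1 (0.81). The calls of PPARGC1A, HBEGF, PSMD1, SYNPO, TNFAIP6, BEX5, FOSL2 and SOX9 ended when 1 or another array was left out.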

How the results depend on the processing

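Without 1 array at a time, 3398 to 3716 genes rose and 2668 to 2968 fell in CdCl cells, 2207 to 2586 rose and 3180 to 3676 fell in control cells, and 2477 to 2861 differences of changes were positive and 1174 to 1421 negative. With every probe set tested separately, which tests 19005 probe sets, the counts were 5829 higher and 5156 lower for CdCl and 4728 higher and 5395 lower for control. For the difference they were 3865 higher and 2910 lower, so 57.0% of its calls were positive, against 67.4% in the main fit. With a replicate block the counts were 3613 and 2869 in CdCl cells, 2429 and 3452 in control cells and 2689 and 1279 for the difference. The deviations of same-numbered CdCl arrays from their group means correlated at -0.048, -0.001 and 0.127. Not every array's deviations correlated best with those of its own number. The labels state no pairing, and with 3 arrays a group these values cannot settle it.

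No list median turned its sign under the scalings tried, but other settings did turn the sign of medians near 0. Less that of all genes, the clock median was -0.057 in the main fit and turned positive under both other filters below. The metallothionein median less that of all genes was 0.0082 in the main fit and ran from -0.026 to 0.049 without 1 array. Medians less that of all genes, from the mean of all probe sets of a gene, were -0.82 for HSP70 and HSP110, 0.91 for the integrated stress response, 0.72 for amino acid synthesis, -0.49 for immediate early genes, -1.70 for replication, -1.67 for mitosis, -0.65 for glycolysis, -0.33 for the proteasome, 0.31 for autophagy, -0.40 for TGF-beta and -0.26 for the EGF family. With no filter on low values they were -0.36 for NF-kB, 0.0027 for interferon, -0.21 for histones, -0.014 for the proximal tubule, -0.15 for matrix, -0.29 for TGF-beta and 0.014 for clock genes, since members under 4 then enter. With a filter at 6 they were -0.45 for immediate early genes, -0.33 for histones, -1.12 for arrestins, -0.27 for the EGF family and 0.038 for clock genes. Without 1 array the immediate early median ran from -0.42 to -0.29 and the p53 median from 0.27 to 0.42.

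With the mean of all probe sets the difference of changes turned its sign for SLC6A6 (-0.070), FOSL2 (0.11) and CASP2 (-0.30). In that setting the difference no longer passed for IRF1 (0.17, adjusted p = 0.493), PSMD1 (0.12, 0.236), SOX9 (-0.34, 0.215) and PPARGC1A (-0.23, 0.0686). Other probe sets taken singly gave differences of -0.33 for IRF1, -0.10 for PSMD1, and -0.23 and 0.48 for NQO1. The causes were not tested. Signals under a log2 value of 4 have no usable order, the brightest metallothioneins lie near the top of the scale, and 3 arrays a group limit the precision.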
